A study of Mus musculus with 6 samples.

Results

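The genes described here encode the ATP-dependent chromatin remodelers BAF, ISWI, CHD and NuRD and the heterochromatin protein HP1α. They are 44 genes chosen by symbol, 26 of them BAF subunits, 2 ISWI ATPases, 5 CHD ATPases outside NuRD, 10 NuRD subunits and 1 HP1 gene (Cbx5), out of 17348 genes listed in the table. All 44 were found, and all 44 passed the filter on low counts. Cortical RNA of mouse embryos at E13.5 was sequenced in 3 libraries labelled WT and 3 labelled cKO. The cKO embryos carried the Nestin-Cre transgene and 2 floxed Ybx1 alleles (Nestin-Cre, Ybx1 fl/fl). The deposited columns call the WT libraries Ctrl. The study describes its controls as wild type littermates for the sequencing and elsewhere as Ybx1 fl/fl embryos without Cre, so whether the WT libraries carried floxed alleles cannot be told here. Nestin-Cre acts in neural progenitors and the cells that descend from them, and blood vessels, blood, microglia and meninges in the dissected cortex keep the gene. Because whole cortex was sequenced, fewer cells of a type and less RNA per cell cannot be told apart. The series speaks of biological replicates, but nothing states which embryos or litters gave which library, so p-values measure the spread between these 6 libraries. It also mentions 3 sequencing batches but does not assign libraries to them, so no batch term could be fitted, and batch and genotype cannot be told apart.

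ATP-dependent remodelers slide, eject or exchange nucleosomes and so set how open promoters and enhancers are. BAF is assembled around one of a pair of ATPases, BRG1 (Smarca4) or BRM (Smarca2), and cortical cells exchange several of its subunits when a progenitor leaves the cell cycle. Actl6a, Phf10, Dpf2 and Ss18 belong to the progenitor form, and Actl6b, Dpf1, Dpf3 and Ss18l1 (CREST) to the neuronal form. NuRD joins a CHD ATPase to the histone deacetylases HDAC1 and HDAC2, and HP1 proteins bind methylated histone H3 in heterochromatin. Ybx1, the deleted gene, encodes a cold-shock domain protein that binds RNA and was named for binding the Y box, a DNA motif that contains the CCAAT letters.

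Start-site sequences are shown for Cbx5, the gene with the lowest p-value, and for Actl6a and Actl6b, the pair of paralogs exchanged between progenitor and neuronal BAF. Each is the 250 bases before the RefSeq start site (GRCm38.p6), read 5′ to 3′ on the strand of the gene, with capitals marking the Y box CTGATTGG or its core ATTGG on either strand (CCAATCAG and CCAAT in reverse).
Cbx5: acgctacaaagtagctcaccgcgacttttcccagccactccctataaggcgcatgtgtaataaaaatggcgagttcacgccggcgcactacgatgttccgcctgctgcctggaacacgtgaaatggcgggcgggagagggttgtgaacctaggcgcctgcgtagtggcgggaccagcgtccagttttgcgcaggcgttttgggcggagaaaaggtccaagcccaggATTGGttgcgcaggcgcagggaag
Actl6a: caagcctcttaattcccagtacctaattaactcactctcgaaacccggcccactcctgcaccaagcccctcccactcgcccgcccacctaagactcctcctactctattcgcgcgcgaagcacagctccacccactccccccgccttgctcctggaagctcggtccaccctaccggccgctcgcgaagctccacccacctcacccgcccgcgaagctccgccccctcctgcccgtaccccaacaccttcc
Actl6b: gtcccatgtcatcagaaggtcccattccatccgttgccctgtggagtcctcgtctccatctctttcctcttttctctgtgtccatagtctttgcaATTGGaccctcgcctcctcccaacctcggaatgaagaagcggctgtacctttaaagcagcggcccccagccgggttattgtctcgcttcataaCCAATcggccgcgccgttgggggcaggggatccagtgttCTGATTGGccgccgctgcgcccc
The Cbx5 sequence is chr15:103239853-103240102 on the minus strand, and it held 1 core match. It lies partly inside the RefSeq span of Cbx5 (Entrez gene 12419, chr15:103191546-103239904). Another part lies inside that of the neighbouring gene Hnrnpa1 (Entrez gene 15382, chr15:103239943-103246698), which is read the other way. The start sites taken for both genes lie 544 bases apart, a wider gap than that between the RefSeq spans. The Actl6a sequence is chr3:32708296-32708545 on the plus strand, ends at the first base before the gene (Entrez gene 56456, chr3:32708546-32726973), and held 0 matches. The Actl6b sequence is chr5:137553296-137553545 on the plus strand and held 3 core matches, 1 of them inside a full Y box. Part of it lies within the RefSeq span of Actl6b (Entrez gene 83766, chr5:137553361-137569582). The 3 sequences were rich in CpG, with 22, 19 and 15 CpG dinucleotides and a GC content of 59.2%, 64.8% and 58.0%.

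RefSeq start-site sequences were found for 34 of the 44 genes. The full Y box stood in 3 of them (Actl6b, Dpf3 and Gatad2b), which is 8.82%, against 5.98% of the 10638 sequences of the same length before tested genes. The core stood in 10 (Actl6b, Cbx5, Chd6, Chd8, Dpf1, Dpf2, Dpf3, Gatad2a, Gatad2b and Smarca1), which is 29.4%, against 37.0%. Every full Y box also counts as a core match, and CCAAT is also the box bound by the factor NF-Y.

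Ybx1 was measured in each library as a check of the labels. Its level was 1021, 528 and 1220 CPM (counts normalised for library size) in WT replicates 1, 2 and 3, and 83.1, 117 and 147 CPM in the cKO replicates, a log2 fold change of -3.00 (SE 0.33, adjusted p = 0.128, edgeR quasi-likelihood test). In the same test Ybx1 passed the adjusted threshold of 0.05 without WT replicate 2 (log2 fold change -3.28, adjusted p = 0.0206) and without WT replicate 2 and cKO replicate 3 together (-3.49, adjusted p = 0.0188), and it passed in DESeq2 (adjusted p = 5.46e-10). Over the 14 alternative fits its adjusted p ran from 5.46e-10 to 0.953. The genotypes did not overlap, but the library labelled WT replicate 2 had an intermediate level, and the WT means given here include it. The libraries held 15907491 to 16282929 estimated counts. Markers of cortical neurons, such as Tbr1, and of radial glia, such as Pax6, were read in every library, and the summed level of 8 skin and meninges markers was 727 CPM in cKO replicate 3 against 6.99 to 14.99 CPM elsewhere. Krt14, a keratin of skin, was at 49.7 CPM there and at 0 in 4 of the other libraries. Markers of interneurons and ventral forebrain summed to 150 to 211 CPM in WT and 221 to 243 CPM in cKO, and 4 of 10 (Dlx5, Gad1, Sst and Npy) were higher in all cKO libraries than in all WT libraries, against 4.21% of tested genes. The part of these differences in the values below was not tested, and values without WT replicate 2 and cKO replicate 3 are given where they change a call.

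Whether the deletion of Ybx1 changed the abundance of remodeler transcripts was asked first over all 44 genes. None passed an adjusted p of 0.05 in the edgeR quasi-likelihood test, where 0.0% of the 13340 tested genes passed, and 0 passed in DESeq2 or limma-voom. At an unadjusted p under 0.05, 0 of 44 were higher in cKO, against 1.75% of all tested genes, and 1 of 44 (Cbx5) was lower, against 1.81%. In 1 gene (Dpf2) all 3 cKO libraries lay above all 3 WT libraries, against 4.21% of tested genes, and in 3 genes (Smarcc1, Chd8 and Cbx5) all lay below, against 4.83%. These counts lay close to what the background shares give for 44 genes.

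Differences between the genotypes were small in nearly every gene. For 42 of 44 genes the 95% interval of the fold change lay within 1.5-fold either way, against 78.2% of tested genes, and the exceptions were Cbx5 and Dpf3. The median of the size of the log2 fold change was 0.064, against 0.078 over all tested genes, and for 32 of the 44 (72.7%) it was smaller than the SD between libraries of the same genotype, against 73.1% of all tested genes, so by this measure the remodeler genes were like the rest. The median SE was 0.089, against 0.114 over all tested genes. A narrower interval lies within 1.5-fold more easily, so the share of such intervals depends on precision as well as on change. Fold changes were negative in 34 genes and positive in 10, with a median of -0.040 against 0.0019 over all tested genes, 49.2% of which were negative. These signs are not independent of each other, because many of the genes deviated together between libraries of the same genotype, as given with the GC content of the transcripts.

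**Figure D1:**
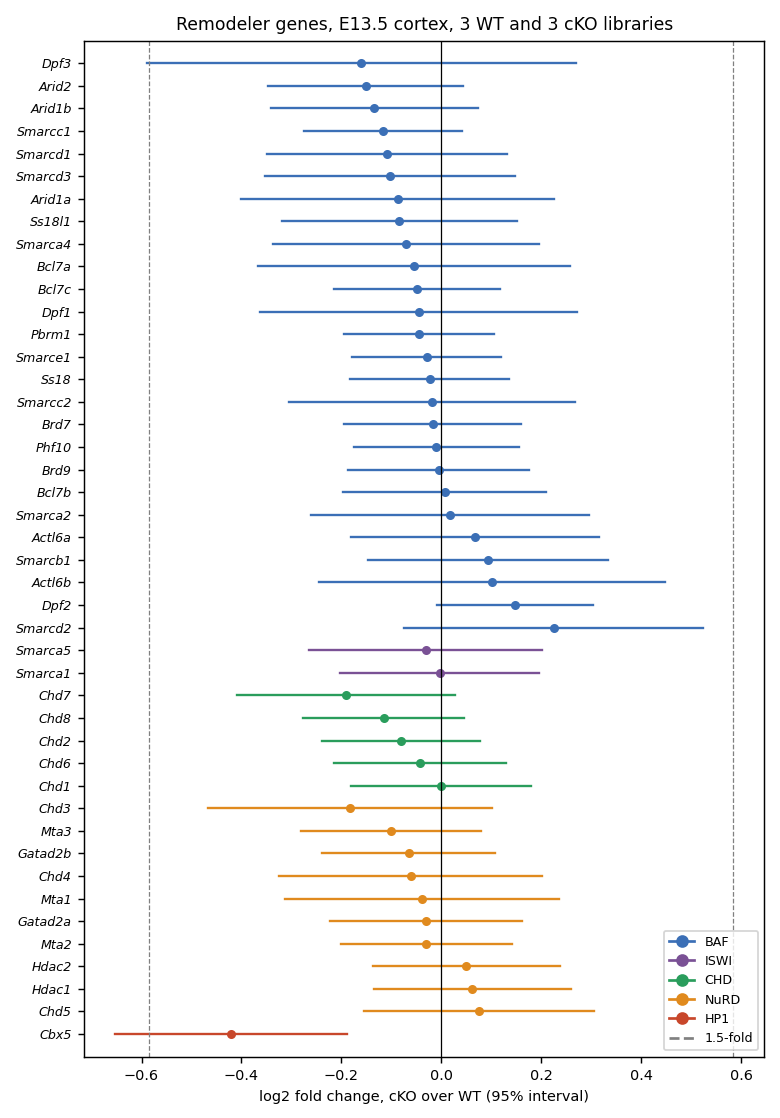
Log2 fold change of each of the 44 remodeler genes, cKO over WT, with its 95% interval (edgeR quasi-likelihood fit, n = 3 libraries per genotype). Colours mark the complex and dashed lines mark 1.5-fold. The interval of Cbx5 alone leaves out 0, and those of Cbx5 and Dpf3 pass the dashed line.

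Compared per length, in TPM, a share of transcripts corrected for their length, most remodeler genes were abundant in the E13.5 cortex. Their median was 86.8 TPM over the 6 libraries, against 25.4 TPM for all tested genes, and 41 of 44 lay above that median. Hdac2 was at the top with 498 TPM (469 to 527 TPM over the libraries), followed by Smarca4 with 328 TPM (283 to 397) and the BAF scaffold Smarcc2 with 289 TPM (247 to 346). The ranges of Smarca4 and Smarcc2 overlapped, as did those of the next in order, Chd4 (255 TPM), Smarce1 (253 TPM), Smarcb1 (248 TPM) and Chd3 (239 TPM). At the bottom were the ISWI ATPase Smarca1 with 15.7 TPM, the neuronal NuRD ATPase Chd5 with 5.23 TPM and the neuronal BAF subunit Dpf3 with 5.14 TPM. The ranges of Chd5 (4.5 to 5.6 TPM) and Dpf3 (3.7 to 5.9 TPM) overlapped.

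Cbx5, which encodes HP1α, had the widest difference of all 44 genes. It was read at 512, 582 and 580 CPM in the WT libraries and at 371, 459 and 421 CPM in the cKO libraries. The genotypes did not overlap, and the difference of their means was wider than either SD (558 ± 39.7 and 417 ± 44.2 CPM, SD, n = 3 each). The cKO level was 74.7% of the WT level, with a 95% interval of 63.6% to 87.8%. The log2 fold change was -0.42 (SE 0.10), with an unadjusted p of 0.00313 and an adjusted p of 0.99995 in the edgeR quasi-likelihood test across all tested genes, so it did not pass the threshold. In DESeq2 its adjusted p was 0.0847, the lowest over 14 alternative fits. Without WT replicate 2 and cKO replicate 3 the log2 fold change was -0.40.

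The other HP1 genes overlapped between the genotypes. Cbx1 (HP1β) was at 170, 203 and 192 CPM in WT and at 171, 207 and 183 CPM in cKO, a log2 fold change of -0.01 (SE 0.10). Cbx3 (HP1γ) was at 348, 471 and 414 CPM in WT and at 416, 476 and 439 CPM in cKO, a log2 fold change of 0.11 (SE 0.12). Whether their difference differed from that of Cbx5 was not tested. As a share of the summed TPM of the HP1 genes, Cbx5 took 16.4% ± 0.43 in WT and 12.9% ± 0.76 in cKO, and Cbx3 took 55.6% ± 1.56 and 59.7% ± 1.14 (SD, n = 3 each), both without overlap. The share of Cbx1 was 27.9% in WT and 27.4% in cKO. No background was computed for how often such shares separate. Hnrnpa1, the gene read the other way from beside the Cbx5 start site, overlapped between the genotypes, with a log2 fold change of -0.06 (SE 0.10).

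**Figure D2:**
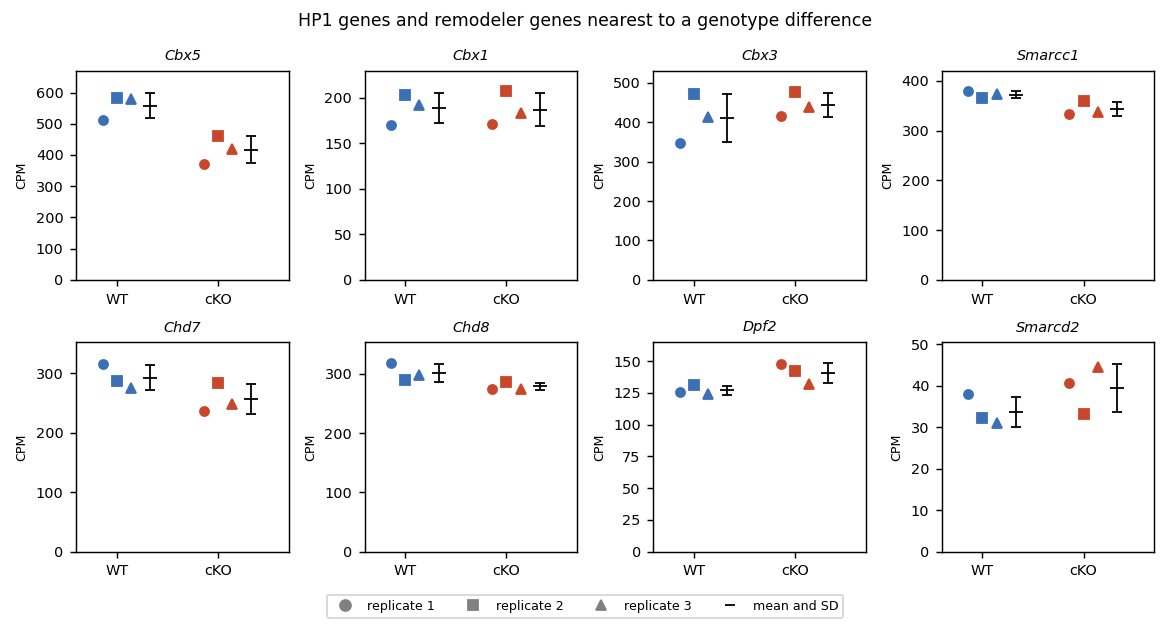
Normalised counts (CPM) of the HP1 genes and of Smarcc1, Chd7, Chd8, Dpf2 and Smarcd2. Points are the 3 WT and 3 cKO libraries, with mean and SD. Arid2, with a lower p-value than Smarcd2, is not shown. The symbol marks the replicate number. Cbx5 lies at 371 to 459 CPM in cKO, below the 512 to 582 CPM of WT, while Cbx1 and Cbx3 overlap.

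The exchange of progenitor for neuronal BAF subunits was compared next. Of the progenitor subunits, Actl6a, an actin-related protein also called BAF53a, was read at 119, 154 and 134 CPM in WT and at 129, 154 and 143 CPM in cKO. Phf10 was at 90.1, 102 and 93.9 CPM in WT and at 94.9, 98.7 and 90.4 CPM in cKO. Ss18 was at 99.8, 112 and 108 CPM in WT and at 101, 107 and 107 CPM in cKO. All of these overlapped, with log2 fold changes of 0.07, -0.01 and -0.02. Dpf2, a PHD finger subunit, was at 126, 131 and 124 CPM in WT and at 148, 142 and 132 CPM in cKO. Its genotypes did not overlap, with a log2 fold change of 0.15 (SE 0.07) and an unadjusted p of 0.0614 in the edgeR quasi-likelihood test. Without WT replicate 2 and cKO replicate 3 its log2 fold change was 0.22 (unadjusted p = 0.0470, adjusted p = 0.99935, edgeR quasi-likelihood).

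Of the neuronal subunits, Actl6b (BAF53b) was read at 40.1, 32.2 and 38.7 CPM in WT and at 48.7, 34.3 and 36.0 CPM in cKO. Dpf1 was at 85.7, 67.8 and 81.0 CPM in WT and at 91.3, 67.9 and 68.1 CPM in cKO. Dpf3 was at 5.21, 5.58 and 6.69 CPM in WT and at 6.30, 4.52 and 4.83 CPM in cKO. None of these separated the genotypes, and replicate 1 was the highest cKO library in each. Ss18l1 was at 86.3, 76.2 and 77.7 CPM in WT and at 86.8, 70.6 and 69.2 CPM in cKO. The log2 fold changes were 0.10 (SE 0.15) for Actl6b, -0.05 (SE 0.14) for Dpf1, -0.16 (SE 0.19) for Dpf3 and -0.08 (SE 0.10) for Ss18l1. Dpf3 had the widest interval of all 44 genes, -0.59 to 0.27 on the log2 scale, at counts near the bottom of the list.

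The balance of both forms was taken as the mean log2 CPM of the progenitor subunits minus that of the neuronal subunits. It was 1.60, 1.98 and 1.66 in the WT libraries and 1.55, 2.06 and 1.94 in the cKO libraries. The means were 1.75 ± 0.20 in WT and 1.85 ± 0.27 in cKO (SD, n = 3 each), and the difference of 0.10 was less than either SD and less than the range of 0.51 over the libraries. Replicate 1 was the lowest library of each genotype. Actl6a and Actl6b are both part of this balance. Their log2 ratio was 1.57, 2.25 and 1.79 in WT and 1.40, 2.16 and 1.99 in cKO. It ordered the libraries within each genotype as the balance did, and the genotypes overlapped. The ratio did not rise in cKO, where the log2 fold change was 0.07 for Actl6a and 0.10 for Actl6b.

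The cell type markers varied between libraries too. The mean log2 level of 10 radial glia markers minus that of 12 cortical neuron markers was -1.30, -0.73 and -0.84 in the WT libraries and -1.42, -0.59 and -0.80 in the cKO libraries. Replicate 1 was again the lowest in both genotypes. Radial glia markers summed to 2230 to 3018 CPM in WT and 2178 to 3108 CPM in cKO, with 0 of 10 separated. Neuron markers summed to 5484 to 6437 CPM in WT and 5279 to 6659 CPM in cKO. Of these, 1 of 12 (Gap43) separated the genotypes, higher in cKO. Among all tested genes, 4.21% were higher in all cKO libraries and 4.83% lower. None of these markers was at 0 in any library. The part of the cell mixture in the BAF values was not tested.

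**Figure D3:**
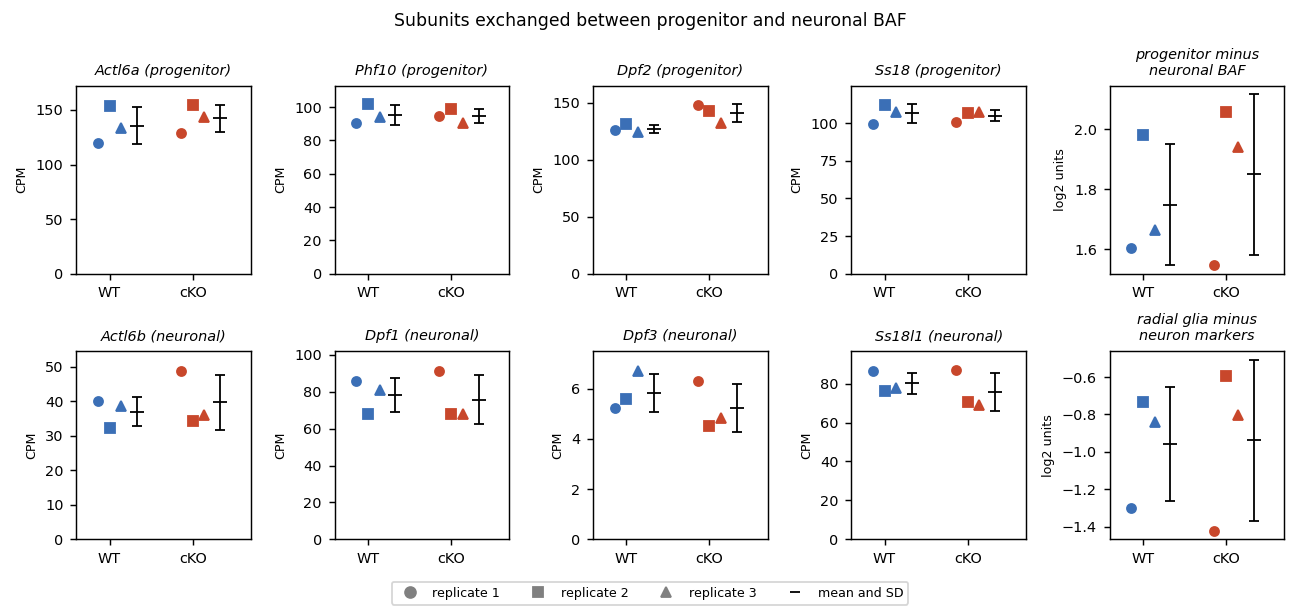
Progenitor BAF subunits (upper row) and neuronal BAF subunits (lower row) in normalised counts (CPM) for each of 3 WT and 3 cKO libraries, with mean and SD. The right-hand panels give, in log2 units, progenitor minus neuronal BAF and radial glia minus neuron markers, and replicate 1 is the lowest library of each genotype in both.

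The catalytic and core BAF subunits overlapped between the genotypes with 1 exception. Smarca4 (BRG1) was at 935, 743 and 815 CPM in WT and at 841, 835 and 698 CPM in cKO, a log2 fold change of -0.07 (SE 0.12). Smarca2 (BRM) was at 123, 114 and 119 CPM in WT and at 142, 100 and 117 CPM in cKO, a log2 fold change of 0.02 (SE 0.12). Both ATPases varied more within a genotype than between genotypes. The exception was Smarcc1 (BAF155), a scaffold subunit, at 379, 365 and 373 CPM in WT and 333, 359 and 337 CPM in cKO, with all cKO libraries lower. Its log2 fold change was -0.12 (SE 0.07, unadjusted p = 0.125, edgeR quasi-likelihood), and that of its paralog Smarcc2 was -0.02 (SE 0.12). Smarcd2, a BAF60 subunit, had the highest fold change of the 44 genes, at 37.9, 32.2 and 31.1 CPM in WT and 40.6, 33.2 and 44.5 CPM in cKO. These overlapped, with a log2 fold change of 0.22 (SE 0.13, unadjusted p = 0.120, edgeR quasi-likelihood). The highest of these values, 44.5 CPM, was in cKO replicate 3, the library with skin and meninges markers. Without WT replicate 2 and cKO replicate 3 the log2 fold change of Smarcd2 was 0.097, below the 0.22 of Dpf2 in that fit.

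The subunits that define the BAF subtypes were negative in sign without passing a test. Arid1a and Arid1b, which mark canonical BAF, had log2 fold changes of -0.09 (SE 0.14) and -0.13 (SE 0.09). Of the PBAF subunits, Arid2 had -0.15 (SE 0.08), Pbrm1 -0.04 (SE 0.07) and Brd7 -0.02 (SE 0.08), and Brd9, which marks the non-canonical form, -0.01 (SE 0.08). Over the 18 BAF genes outside the progenitor and neuronal lists, 14 were negative and 4 positive, with a median of -0.047. Of all tested genes, 49.2% were negative. The medians were 0.029 for the 4 progenitor subunits and -0.065 for the 4 neuronal subunits.

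The ISWI and CHD ATPases, which space nucleosomes or act at enhancers and promoters, were compared as single genes. Smarca5 (SNF2H) and Smarca1 (SNF2L), the ISWI ATPases, had log2 fold changes of -0.03 (SE 0.10) and -0.00 (SE 0.09). Chd1 and Chd2 had -0.00 (SE 0.08) and -0.08 (SE 0.07), and Chd6 had -0.04 (SE 0.07). All of them overlapped between the genotypes. Chd7, the gene mutated in CHARGE syndrome, was at 315, 287 and 274 CPM in WT and 235, 284 and 248 CPM in cKO, a log2 fold change of -0.19 (SE 0.09, unadjusted p = 0.0777, edgeR quasi-likelihood). One cKO library, replicate 2, lay within the WT range, and without it the log2 fold change was -0.27 (unadjusted p = 0.0211, adjusted p = 0.99928, edgeR quasi-likelihood). Chd8, a gene linked to autism, was at 319, 289 and 298 CPM in WT and 275, 286 and 275 CPM in cKO. Its cKO libraries were all lower than its WT libraries, with a log2 fold change of -0.12 (SE 0.07, unadjusted p = 0.137, edgeR quasi-likelihood). The median of the 5 CHD genes was -0.081.

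Of the NuRD ATPases, Chd3 was at 965, 764 and 808 CPM in WT and 851, 681 and 703 CPM in cKO. Chd4 was at 889, 711 and 743 CPM in WT and 804, 773 and 668 CPM in cKO. Both were highest in replicate 1 of each genotype, and both overlapped, with log2 fold changes of -0.18 (SE 0.12, unadjusted p = 0.176, edgeR quasi-likelihood) and -0.06 (SE 0.11). Chd5 was at 21.6, 20.1 and 24.3 CPM in WT and 22.9, 22.3 and 24.4 CPM in cKO, a log2 fold change of 0.08 (SE 0.10). The deacetylases Hdac1 and Hdac2 had 0.06 (SE 0.09) and 0.05 (SE 0.08). The MTA and GATAD2 scaffold subunits lay between -0.10 (Mta3) and -0.03 (Mta2). The 10 NuRD genes had a median of -0.034. In 0 of them the genotypes separated, against 4.21% of tested genes higher in all cKO libraries and 4.83% lower. A count of 0 is near those shares for so few genes.

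Paralogs were compared by their share of the summed TPM of the family, over 15 families. Whether the members of a family replace each other in a complex was not examined. The largest difference between the genotype means was 2.71 percentage points. Smarca4 took 81.1% of the BAF ATPases in WT and 79.8% in cKO, Smarcc2 took 66.5% and 68.0% of the scaffold pair, and Arid1a took 76.0% and 76.8% of the ARID1 pair. Actl6a took 71.9% ± 4.64 in WT and 71.7% ± 5.80 in cKO of the pair with Actl6b (SD, n = 3 each), with a range over libraries of 65.0% to 76.9%. Ss18 took 65.9% and 67.0% of the pair with Ss18l1, Smarca5 took 90.5% and 90.2% of the ISWI pair, and Hdac2 took 73.9% and 73.7% of the deacetylases. In each of these the libraries of both genotypes overlapped.

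In 4 families a share did not overlap. How often a share separates in other gene families was not computed, so this count has no background. Shares within a family are not independent, because a rise in any paralog lowers the others. Dpf2 took 32.4% ± 1.12 of its family in WT and 35.1% ± 1.05 in cKO (SD, n = 3 each), the largest change. Smarcd2 took 7.56% to 8.31% of the BAF60 genes in the WT libraries and 8.49% to 11.9% in the cKO libraries. The 11.9% was in cKO replicate 3, the library with skin and meninges markers. The 8.49% of cKO replicate 2 lay close to the 8.31% of WT replicate 2. Chd6 took 28.8% ± 0.65 in WT and 30.5% ± 1.14 in cKO of its family with Chd7 and Chd8. Within the NuRD ATPases, Chd3 took 48.9% ± 0.17 in WT and 46.7% ± 2.62 in cKO, and Chd4 took 50.2% ± 0.21 and 52.1% ± 2.63. That pair was set apart mainly by 1 library, cKO replicate 2, where Chd3 took 43.7%, against 48.1% and 48.4% in the other cKO libraries. No test was made of these shares, which are given as a description.

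**Figure D4:**
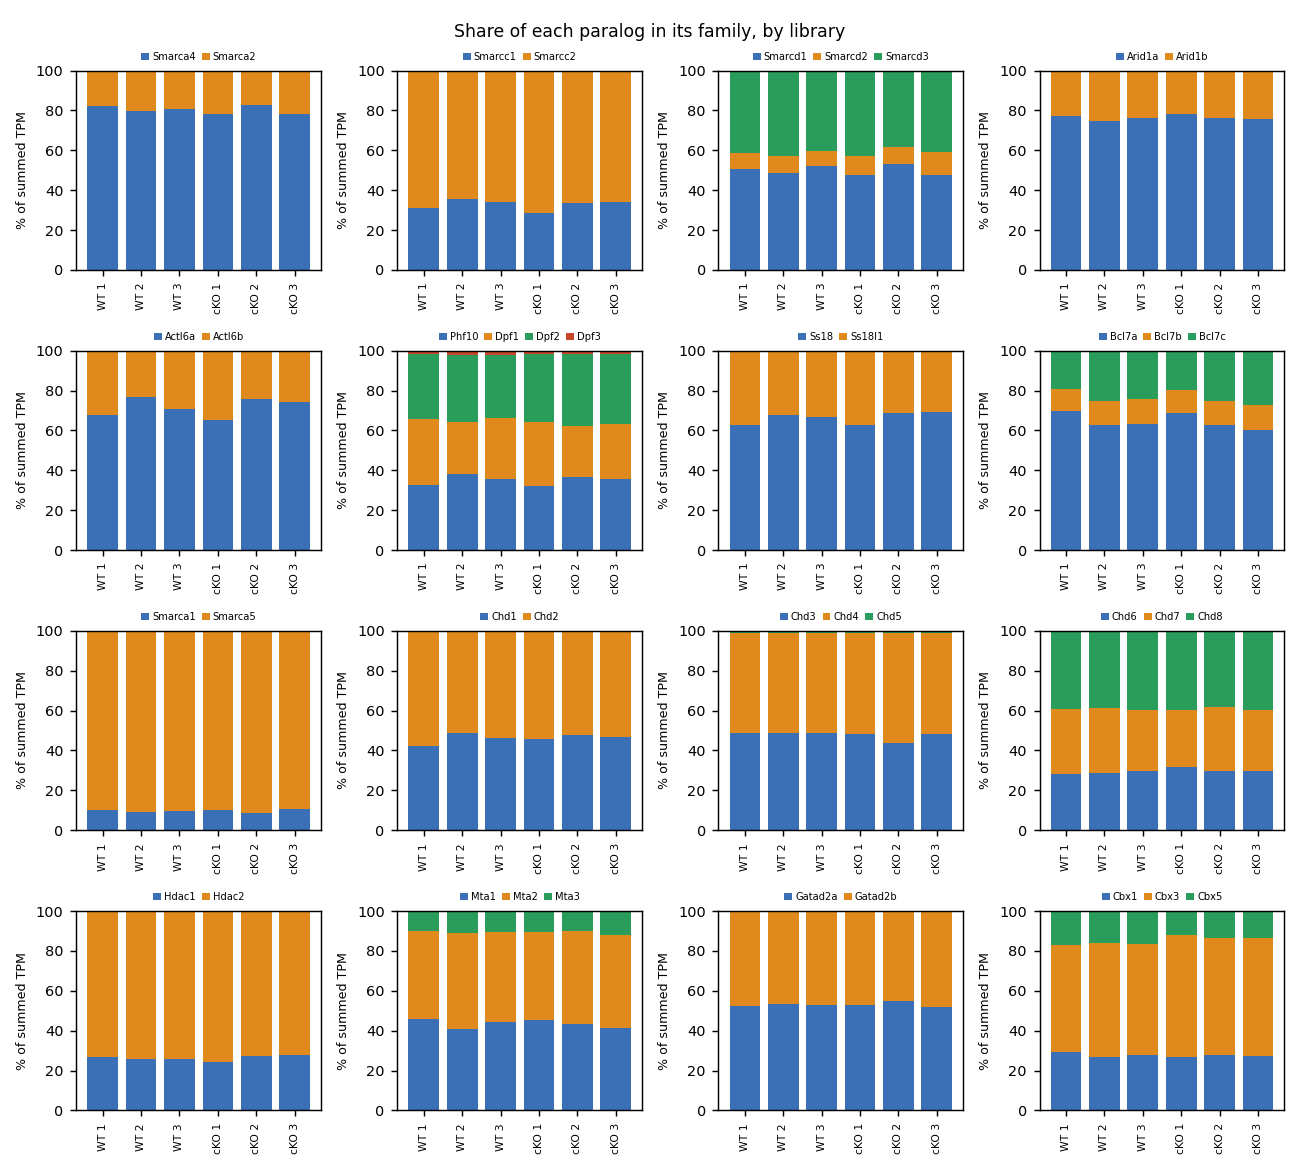
Share of each paralog in the summed TPM of its family (%), by library, for 15 families of remodeler genes and, in the last panel, the HP1 genes. Each bar is 1 of 3 WT or 3 cKO libraries. Colours keep nearly the same heights across libraries, with Actl6a between 65.0% and 76.9% of its pair and Cbx5 narrower in the cKO bars.

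The remodeler genes varied together between libraries of the same genotype. WT replicate 1 was the highest WT library in 27 of 44 genes, against 40.3% of all tested genes. WT replicate 2 was the lowest in 26. Of the cKO libraries, replicate 2 was the highest in 22, against 34.7% of all tested genes, and replicate 3 was the lowest in 24. The share of all tested genes that were lowest in a library was not computed. The median log2 deviation of the 44 genes from the genotype mean was 0.08, -0.06 and -0.002 in WT replicates 1, 2 and 3. In cKO replicates 1, 2 and 3 it was 0.039, 0.043 and -0.07. Over all tested genes it ran from -0.0067 to 0.0065. The deviations of WT replicates 1 and 2 and of cKO replicate 3 were wider than the median genotype difference of -0.040. Those of cKO replicates 1 and 2 were about as wide, and that of WT replicate 3 was narrower.

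The GC content of the transcripts was known for 44 of 44 genes. The ratios of WT replicate 1 to 2 and of cKO replicate 1 to 3 ran with it. Other pairs of libraries were not compared with GC content. The log2 ratio of WT replicate 1 to WT replicate 2 had a Pearson r of 0.55 with GC content over the 44 genes and of 0.31 over 12887 tested genes, given as a description across genes that share their libraries. Of the 25 remodeler genes with at least 50% GC, 21 were higher in WT replicate 1, with a median log2 ratio of 0.23, and of the 19 below 50% GC, 8 were, with a median of -0.06. For cKO replicate 1 over cKO replicate 3 the r was 0.50 over the 44 genes and 0.10 over all tested genes. For the genotype difference the r was 0.11 and 0.07. Cbx5, with 43.9% GC, was low in cKO against all 3 WT libraries. The part of GC content in the genotype differences was not tested.

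**Figure D5:**
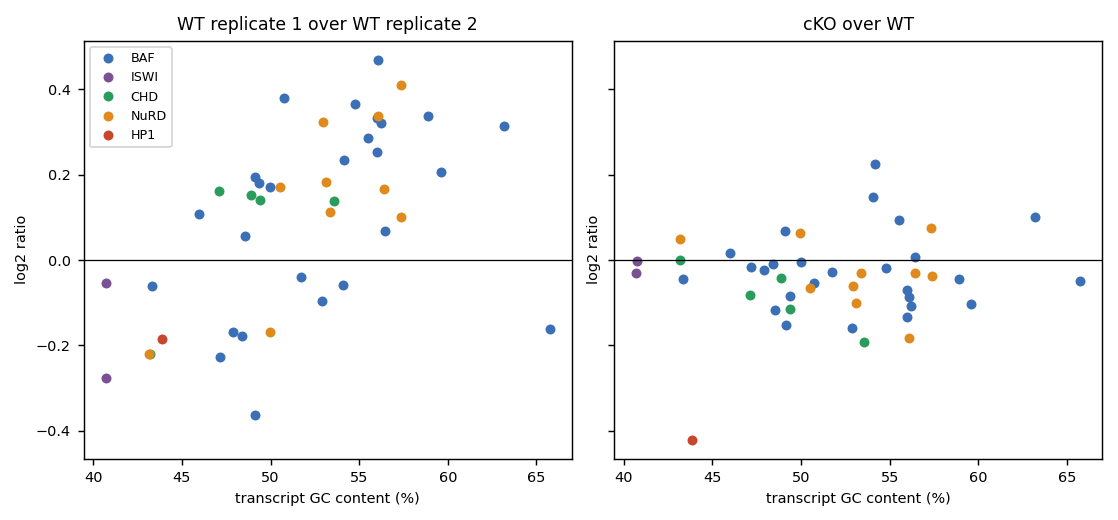
Transcript GC content (%) of the 44 remodeler genes against the log2 ratio of WT replicate 1 to WT replicate 2 (left) and of cKO to WT (right), coloured by complex. On the left most genes with at least 50% GC lie above 0 (21 of 25), and on the right the genes lie near 0 at all GC contents except for Cbx5 at -0.42.

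Beyond these 44, 53 other remodeler genes were compared, among them partners of BAF, NuRD, ISWI and HP1, the INO80 and SRCAP/EP400 complexes and other SNF2 ATPases. None passed the adjusted threshold in the edgeR quasi-likelihood test, and at an unadjusted p under 0.05, 0 were higher (against 1.75% of tested genes) and 0 were lower (against 1.81%). In 3 (Rsf1, Atrx and Smarcal1) the whole cKO group was under the whole WT group, against 4.83% of tested genes. All 53 had a 95% interval within 1.5-fold, against 78.2%, with a median SE of 0.094 against 0.114 over all tested genes. The log2 fold changes ran from -0.20 to 0.23 with a median of -0.024. Of these, 33 were negative and 20 positive. Rest, which represses neuronal genes in progenitors, had a log2 fold change of -0.12 (SE 0.10), and Actb, the actin subunit of BAF, 0.04 (SE 0.08).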

How the data were processed

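Total RNA was extracted from E13.5 cortex with Trizol, and mRNA libraries were sequenced on the DNBSEQ platform. Per the labels, the submitters' processing notes name HISAT2 2.2.1, Bowtie2 2.4.5, RSEM 1.3.1 and the builds GRCm38 and mm10. The annotation and strand setting are not given in the sources used here. The authors deposited estimated counts per gene without normalisation (10.9% of values not whole), TPM and FPKM. FPKM values, deposited by the authors, were not used, and TPM deposited by the authors gave levels between genes and shares.

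Estimated counts were rounded and tested for genotype with edgeR 4.0.16 in R 4.3.3 (filterByExpr, minimum count 10, which left 13340 genes, TMM factors 0.987 to 1.03, glmQLFit and glmQLFTest, Benjamini-Hochberg over all tested genes, threshold 0.05). CPM are TMM-normalised. The common dispersion was 0.0169. The SE is the size of the log2 fold change over the square root of F. DESeq2 1.42.0 and limma 3.58.1 were alternatives. The count values of 2 remodeler genes (Phf10 and Smarca5) were not whole. Groups and replicate numbers came from the sample titles. Same-numbered libraries shared deviations in pairs 1 and 2 but not in pair 3 (correlations 0.41, 0.31 and -0.02 over all tested genes). Over the remodeler genes the correlations were 0.58, 0.31 and -0.005. The numbers are not known to pair libraries, so the main fit has no block, and a fit with the block is among the alternatives.

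The 44 genes, the progenitor and neuronal lists, the 53 other genes and the markers were chosen with earlier results of these data known. Named singly were Ybx1, the 8 exchanged subunits, the ATPases, genes with an unadjusted p under 0.05 or separated genotypes, the 5 with the largest fold changes, and paralog families by share. Fold changes of other subunits (the ARID, bromodomain, deacetylase and MTA genes, Pbrm1 and Smarcc2), the HP1 paralogs, Rest, Actb, Hnrnpa1, Rsf1, Atrx and Smarcal1 were added after their values were seen.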

Additional observations from a re-analysis of the deposited data

How the results depend on the processing

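The 14 alternatives were RLE size factors, no filter, a minimum of 10 counts in every library, DESeq2, limma-voom, limma on log2(TPM + 1), the replicate number as a block (the numbers are not known to pair libraries), each library left out in turn, and WT replicate 2 and cKO replicate 3 left out together. The number of all genes past the adjusted threshold was 4 with DESeq2, 2 with the block, 2 without both libraries and 0 to 2 with 1 library left out, and 0 remodeler genes passed in any of the 14. Ybx1 had log2 fold changes of -3.00 with DESeq2, -2.95 with the block, -3.49 without both libraries and -3.28 to -2.75 with 1 left out, and it passed the adjusted threshold with DESeq2 (adjusted p = 5.46e-10), with the block (0.0381), without WT replicate 2 (0.0206) and without both libraries (0.0188). Remodeler genes at an unadjusted p under 0.05 and higher in cKO numbered 1 with the block (against 3.57% of all genes tested there), 1 without both libraries (0.787%) and 0 to 1 with 1 left out (0.895% to 4.23%). Those lower numbered 3 with the block (Cbx5, Chd3 and Chd7, against 4.60% of all genes) and 1 to 4 with 1 left out (0.873% to 3.57%). The count of 4 came without cKO replicate 1 (Smarcd3, Ss18l1, Chd3 and Cbx5), where 3.57% of all genes were lower at that p. Cbx5 stayed negative in 14 of 14, from -0.50 to -0.33, with an unadjusted p of 6.12e-05 to 0.0318 and an adjusted p of 0.0847 or more. The median of the 44 genes ran from -0.074 to -0.00030, and the progenitor minus neuronal difference from -0.0044 to 0.25.

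Of 322 values of 23 named genes, 285 kept the direction and 37 did not, and 10 genes kept it in all 14. Chd1 turned to 0.0015 with RLE and DESeq2, 0.00046 with the minimum of 10 counts, 0.0014 with voom, 0.0076 with TPM, 0.0011 with the block and 0.072 without both libraries, Phf10 to 0.0063 with TPM and 0.073 without both, Smarca1 to 0.018 with TPM, Smarca5 to 0.044 and Chd5 to -0.022 without both. With 1 library left out the ranges were -0.052 to 0.053 (Chd1), -0.045 to 0.041 (Phf10), -0.065 to 0.037 (Smarca1), -0.107 to 0.038 (Smarca5), -0.012 to 0.167 (Actl6a), -0.064 to 0.194 (Actl6b), -0.193 to 0.029 (Dpf1), -0.065 to 0.015 (Ss18), -0.116 to 0.129 (Smarca2), -0.145 to 0.026 (Smarca4), -0.125 to 0.045 (Chd4) and -0.079 to 0.0014 (Chd6). The cause was not tested. At this depth all 44 genes could be tested, and with 3 libraries per genotype a typical log2 fold change had an SE of 0.089.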
